A study of Mus musculus with 3 samples.

Results

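The heat shock and DnaJ genes code for molecular chaperones, the proteins that help other proteins to fold. They were described here in EpH4-PR cells, on all 3 arrays of the series, and were taken by the gene name that each array file gives to a probe. Names starting with Hsp and a digit or 1 of the letters a to e and h, or with Dnaja, Dnajb or Dnajc and a number, were taken, as were Hsf1 and Hsf2, whereas Serpinh1 and the proteoglycan gene Hspg2 were left out. The names gave 59 of 29273 gene names and 110 of 41174 probes. The names were matched without any expression value, though the members were chosen with earlier results of these data known.

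EpH4 is an epithelial line derived from mouse mammary gland. EpH4-PR cells are EpH4 cells stably transfected with PR-A, an isoform of the progesterone receptor, with clones selected and kept in medium with neomycin (G418), and how many clones the RNA came from is not given in the sources used here. The cells were grown in DMEM with 10% FBS to about 75% confluence, and RNA was labelled with Cy5 and hybridised on each array together with Cy3-labelled Stratagene mouse standard, a commercial reference RNA whose make-up is not given in the sources used here. Each value below is therefore the log2 ratio of EpH4-PR RNA over that reference RNA (0 is an equal level, 1 is a doubling). Cells without PR (EpH4-EV) were not analysed here, so no ratio measures an effect of PR, and dyes were not swapped, so a dye effect of a probe cannot be told apart from its ratio. Whether the 3 arrays hold separate cultures is not stated, so p-values measure only the spread between these arrays, which may be technical.

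Hsp70 proteins bind and release short unfolded stretches in a cycle driven by ATP. DnaJ proteins (also called Hsp40) bring them their substrates and start ATP hydrolysis, and nucleotide exchange factors, among them the Hsp110 proteins, let the substrate go. Hsp90 finishes the folding of kinases and steroid receptors, PR included, the chaperonin Hsp60 (Hspd1) with its lid Hsp10 (Hspe1) folds proteins inside mitochondria, and small heat shock proteins hold unfolded proteins without ATP. Heat shock factor Hsf1 switches on the cytosolic and mitochondrial members through heat shock elements, whereas the members of the endoplasmic reticulum (ER) answer to the unfolded protein response.

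The arrays were alike in brightness. The median Cy5 intensity was 93.8 to 113 over a local background of 42 to 43, and 3 to 150 of 43790 spots were marked as outliers, none of them on a probe of the chaperones. Of 10 epithelial markers, all were detected on the 3 arrays (marked by the scanner software as well above background in Cy5), and 10 of their 11 probes were called higher than reference RNA; the exception was Krt19 (-2.62). Of markers of other cell types, 10 of 10 mesenchymal, 6 of 8 muscle, 6 of 8 blood and 3 of 8 germ cell genes were detected on all arrays, and the defining markers Ddx4 and Sycp3 (germ cell) and Itgam (blood) on none. The mesenchymal probes had a median ratio of -1.30, and no probe of these 4 lists was called higher. Both probes of Pgr, the receptor gene itself, were detected on only 1 of 3 arrays. Whether they read the transfected PR-A was not tested, so they give no level for it.

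The promoters of the genes on which the results turn are shown first, with heat shock elements or ER stress elements in capitals. A paired heat shock element was searched as GAANNTTC or TTCNNGAA, a triple element as GAANNTTCNNGAA or TTCNNGAANNTTC (which holds overlapping paired elements), and the ER stress element as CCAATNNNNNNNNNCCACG, each on both strands. The sequences are those of RefSeq on GRCm38.p6 and read 5′ to 3′ on the strand named; the array files name no build. The chaperonin genes Hspd1 and Hspe1 lie head to head. Hspd1 has starts at 55087932 and 55088243, the latter beyond the Hspe1 start and without a heat shock element in the 250 bases before it. The first line gives the 215 bases between the Hspe1 start and the Hspd1 start at 55087932 (chr1:55087933-55088147, plus strand, the strand of Hspe1). The others are the 250 bases before a start of Hsph1 (chr5:149636337-149636586, minus), Hspa1a (chr17:34972157-34972406, minus), Dnajb4 (chr3:152193846-152194095, minus) and Hspa5 (chr2:34771840-34772089, plus). They stand for the highest genes, for the gene with the most discordant probes, for the lowest gene and for the main Hsp70 of the ER.
Hspd1-Hspe1: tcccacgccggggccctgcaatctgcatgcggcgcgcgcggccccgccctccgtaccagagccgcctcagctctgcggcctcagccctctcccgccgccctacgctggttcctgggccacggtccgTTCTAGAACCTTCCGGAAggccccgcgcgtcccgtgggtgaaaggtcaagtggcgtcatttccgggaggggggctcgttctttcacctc
Hsph1: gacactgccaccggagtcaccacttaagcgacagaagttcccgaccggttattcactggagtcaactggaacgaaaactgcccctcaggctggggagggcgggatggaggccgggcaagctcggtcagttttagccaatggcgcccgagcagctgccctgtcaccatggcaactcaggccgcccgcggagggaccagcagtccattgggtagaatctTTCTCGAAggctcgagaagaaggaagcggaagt
Hspa1a: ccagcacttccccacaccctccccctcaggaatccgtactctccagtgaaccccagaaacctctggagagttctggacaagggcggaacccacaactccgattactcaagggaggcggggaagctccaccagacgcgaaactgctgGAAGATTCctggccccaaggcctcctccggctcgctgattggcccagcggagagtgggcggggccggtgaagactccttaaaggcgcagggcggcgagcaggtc
Dnajb4: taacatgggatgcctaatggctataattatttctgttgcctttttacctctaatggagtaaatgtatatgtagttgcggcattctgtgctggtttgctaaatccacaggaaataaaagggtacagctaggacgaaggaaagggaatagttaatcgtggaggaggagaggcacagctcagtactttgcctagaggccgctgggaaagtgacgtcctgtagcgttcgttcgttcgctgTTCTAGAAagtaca
Hspa5: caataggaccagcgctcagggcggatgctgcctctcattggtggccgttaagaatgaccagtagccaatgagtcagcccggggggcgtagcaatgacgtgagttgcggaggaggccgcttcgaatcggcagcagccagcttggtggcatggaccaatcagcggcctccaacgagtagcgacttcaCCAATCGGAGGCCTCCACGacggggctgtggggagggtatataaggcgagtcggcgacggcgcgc

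Most chaperone probes were marked as detected in EpH4-PR RNA. Of the 110 probes, 99 (90.0%) were detected on all 3 arrays, against 68.9% of all probes, and 56 of the 59 genes had at least 1 such probe. The 3 without one were Hsf2, Hspb3, a small heat shock protein of muscle, and Dnajb7, a testis DnaJ gene. The mark does not by itself show a transcript, as 7 of 9 probes of members known from germ cells carried it too. Negative control spots had a median Cy5 intensity of 57.3 to 74.1, above the local background of 42 to 43. In the mean intensity of both channels, which includes reference RNA, the chaperone probes were also brighter than the array as a whole. By that measure 80 of 110 stood above the median of all probes.

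By limma with Benjamini-Hochberg adjustment over all probes, 11 of the 110 probes (10.0%) were called higher than reference RNA, that is with an adjusted p under 0.05 and at a log2 ratio of 1 or more. Of all 41174 probes 2.26% were called higher. The 11 probes belonged to 9 genes: the Hsp110 gene Hsph1, Hspa1a, Hsp90ab1, Hspd1, Hspe1, the small heat shock gene Hspb2, the ribosome-associated DnaJ gene Dnajc2, and Hspbap1 and Tmem132a, which are no chaperones. A further 2 probes (1.82%) were called lower, 1 each of Dnajb4 and Dnajc1, against 3.83% of all probes. Without array 1 the probes of Hspb2 (0.95), Hspbap1 (0.97) and Dnajc1 (-0.99) fell short of the limit of 1, which left 1 lower call. Without the 3 genes that match the names but are no heat shock genes (Hspbap1, Tmem132a and Tmem208, the latter pair named Hspa5bp1 and Hspc171 in the files), 9 probes were called higher and 2 lower.

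Without the limit on size, 48 of the probes (43.6%) were above 0 at an adjusted p under 0.05, against 25.7% of all probes. A further 25 (22.7%) were below 0, against 24.6% of all probes, and 37 did not pass. Among probes detected in both channels on all arrays, 48.9% of the chaperone probes were above 0 and 22.8% below. Of all probes so detected, 34.1% were above and 28.8% below. The median ratio of the 110 probes was 0.09 against -0.01 for all probes, with a range of -1.45 to 1.76. The median SD between arrays was 0.07 against 0.09 for all probes.

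**Figure D1:**
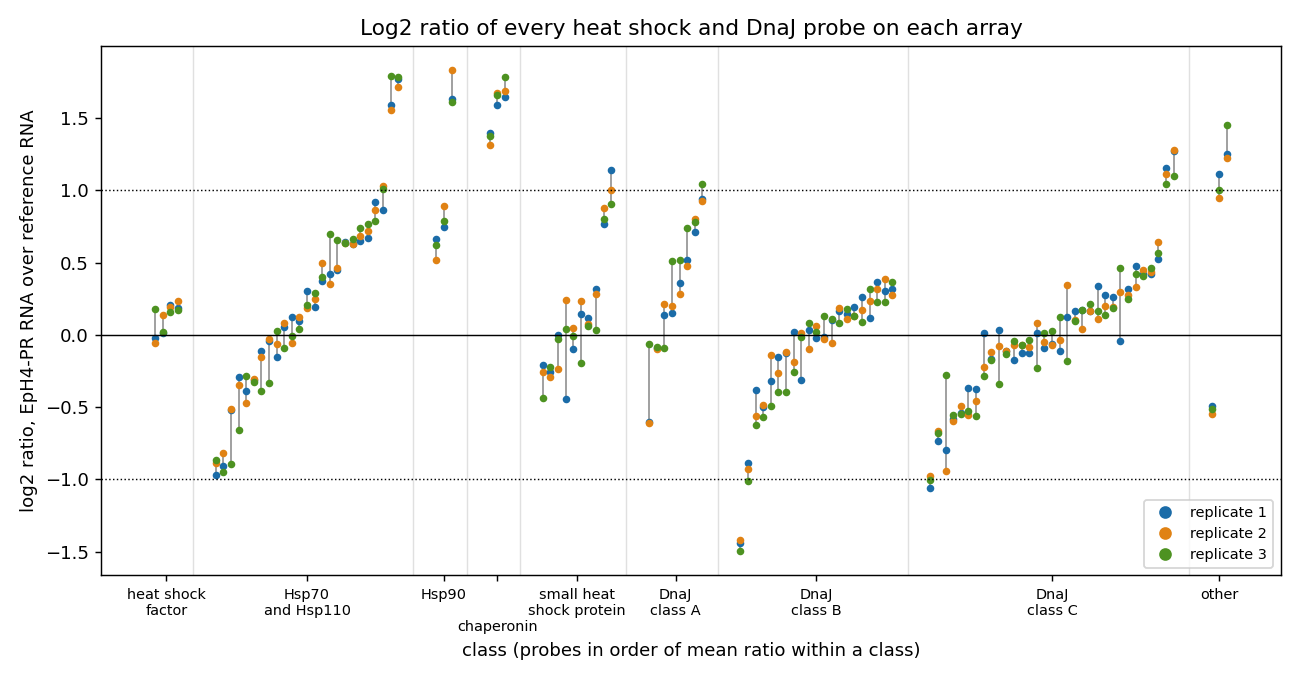
Log2 ratio of EpH4-PR RNA over reference RNA (vertical axis) for each of the 110 probes, in order within its class (horizontal axis). Points are the 3 arrays, grey lines join the lowest and highest of them, and dotted lines mark ratios of 1 and -1. All 3 chaperonin probes and all 3 Hsp90 probes lie above 0, while the Hsp70 and DnaJ classes reach to both sides.

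With the main normalization (loess), the heat shock factors themselves stood close to the reference RNA. Hsf1, the main switch of the heat shock response, had 2 probes with ratios of 0.21, 0.19 and 0.16 and of 0.18, 0.23 and 0.17 on arrays 1, 2 and 3. Both passed the test (mean 0.19 ± 0.02 and 0.19 ± 0.03, SD, n = 3, limma adjusted p = 0.0177 and 0.0159), at a size well under the limit of 1. Both missed the threshold with a background offset of 0 (adjusted p = 0.0506 and 0.0989), without array 1 (0.0999 and 0.0746) and without array 2 (0.106 and 0.112). Under median centring in place of loess (both described below), the Hsf1 probes read 0.85 and 1.31, and the second would be called higher. Hsf2, a relative with roles in development and the germ line, gave means of 0.06 and 0.03 that did not pass, on probes detected on 1 and 2 arrays.

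The chaperonin was the class furthest above the reference, with every probe called. Hspd1, the subunit of the folding barrel, had ratios of 1.59, 1.67 and 1.66 on one probe and of 1.64, 1.69 and 1.78 on the other. Hspe1, the lid, had ratios of 1.40, 1.31 and 1.37. Each array thus stood well above 0 on each probe, and the 2 probes of Hspd1 differed by 0.06, less than the distance between their arrays. The means were 1.64 ± 0.04, 1.70 ± 0.07 and 1.36 ± 0.05 (SD, n = 3; limma adjusted p = 2.49e-05, 2.73e-05 and 3.52e-05), or 3.12-fold, 3.26-fold and 2.57-fold. The stretch printed above holds 1 run of 18 bases, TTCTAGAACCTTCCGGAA, in which 3 paired elements overlap. The run lies 71 bases before the Hspe1 start and 126 bases before the Hspd1 start at 55087932.

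Both cytosolic Hsp90 genes were above the reference on every array. Hsp90ab1, the constitutive form, had ratios of 1.63, 1.83 and 1.61 on one probe and of 0.75, 0.89 and 0.79 on the other. The first was called higher (mean 1.69 ± 0.12, SD, n = 3, limma adjusted p = 4.47e-05), whereas the second passed the test below the limit (0.81 ± 0.07, adjusted p = 0.00018), so its probes agreed in direction and not in size. Hsp90aa1, the stress-inducible form, had ratios of 0.66, 0.52 and 0.62 (mean 0.60 ± 0.07, adjusted p = 0.00049).

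The 13 Hsp70 and Hsp110 genes reached to both sides of the reference. Of their 25 probes 13 were above 0, 7 were below 0 and 5 did not pass, with a median of 0.23. Hsph1, an Hsp110 that exchanges nucleotides on Hsp70, had the highest ratio of all 110 probes, at 1.77, 1.71 and 1.78 on the 3 arrays (mean 1.76 ± 0.04, SD, n = 3, 3.38-fold, limma adjusted p = 2.17e-05). Its relatives Hspa4 (0.64 and 0.49) and Hspa4l (0.64, 0.86 and 0.72, with 0.09 on a 4th probe that did not pass) were above 0 as well.

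The constitutive cytosolic Hsp70, Hspa8, had ratios of 0.86, 1.03 and 1.01 on one probe and of 0.19, 0.25 and 0.29 on the other. Both passed (means 0.97 ± 0.09 and 0.24 ± 0.05, limma adjusted p = 0.000135 and 0.00881). Hspa14, which sits with a DnaJ protein at the ribosome, had a mean of 0.69. Hspa5 (BiP), the Hsp70 of the ER, had ratios of -0.97, -0.89 and -0.86 (mean -0.91 ± 0.06, adjusted p = 0.000104), below the reference on every array by loess and above it (0.59) under median centring. Loess sets ratios to 0 along brightness, whereas median centring shifts all ratios of an array by their median. Hspa9, the Hsp70 of mitochondria, was split: one probe had -0.31, -0.30 and -0.33 and the other 0.37, 0.50 and 0.40, and both passed (adjusted p = 0.00265 and 0.00151). Under median centring both were above 0 (1.14 and 1.65).

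Hspa1a, the classical heat-inducible Hsp70, had the most discordant probes of all. One probe read 1.59, 1.56 and 1.79 on the 3 arrays and was called higher (mean 1.65 ± 0.12, limma adjusted p = 4.85e-05), and a second read 0.45, 0.46 and 0.66. The third read -0.91, -0.82 and -0.95 and the fourth -0.52, -0.51 and -0.90, the latter being detected on 1 array. The arrays gave the same sign for each probe, so the distance of 2.54 log2 units lay between probes and not between arrays, and no single level can be given for the gene. Hspa1b, its near-identical neighbour, had ratios of 0.12, -0.05 and -0.01 that did not pass (mean 0.02, adjusted p = 0.776), and probes may share targets between the pair. The 250 bases before the starts of both genes are the same at 247 positions and carry the same element, GAAGATTC.

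The remaining members of the class stood nearer to 0. Hspa12a had a probe above 0 (0.23), another below (-0.38) and 1 more (-0.06) that was detected in neither channel. The probe below 0 was detected in reference RNA only, which was at least 1.30-fold brighter there. The testis Hsp70 genes Hspa2 (-0.43 on the probe that passed) and Hspa1l (0.01, not passed) and the endothelial Hspa12b (-0.22) were not above the reference.

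**Figure D2:**
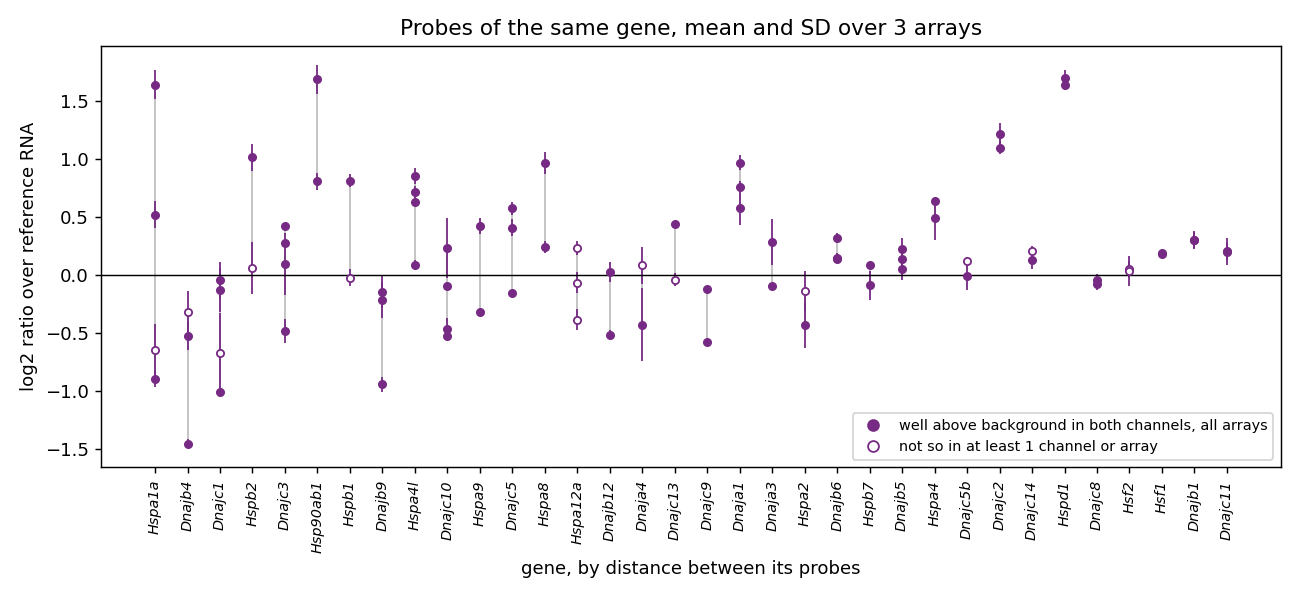
Log2 ratio over reference RNA (vertical axis, mean with SD over 3 arrays) of each probe of the 34 genes with several probes, ordered by the distance between the lowest and highest probe (horizontal axis). Filled points were detected in both channels of every array. Hspa1a spans 2.54 log2 units and Dnajb4 1.14, while the probes of Hspd1 lie together.

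Probes of the same gene disagreed more than arrays did. Over the 34 genes with several probes, the median distance between the lowest and the highest probe was 0.47, and it was over 1 in Hspa1a and Dnajb4. In 5 genes (Hspa1a, Hspa9, Hspa12a, Dnajc3 and Dnajc5) probes passed the test in opposite directions. Under median centring Hspa1a alone of these kept probes on both sides of 0, as all probes of Hspa9, Dnajc3 and Dnajc5 lay above it and those of Hspa12a below. By loess, in 19 of the 59 genes every probe was above 0 at an adjusted p under 0.05, and in 8 every probe was below. The files give no probe sequences, so which transcripts each probe reads was not tested.

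Of the 7 small heat shock genes, only Hspb1 and Hspb2 had a probe above 0. Hspb1 (Hsp25), which guards actin filaments under stress, had ratios of 0.77, 0.88 and 0.80 on one probe (mean 0.81 ± 0.06, SD, n = 3, limma adjusted p = 0.000145) and of -0.10, 0.04 and -0.01 on the other, which did not pass (adjusted p = 0.738). Hspb2, a muscle member, had one probe at 1.14, 1.00 and 0.91 that was called higher (mean 1.02 ± 0.12, adjusted p = 0.000167), while its other probe did not pass (0.06). Hspb2 lies within the span of Cryab in the RefSeq table, another small heat shock gene whose 2 probes had means of 0.75 and 1.20, and whether the Hspb2 probe reads Cryab transcripts was not tested. Hspb8, a partner of Bag3 in autophagy, had ratios of -0.21, -0.26 and -0.44 (mean -0.30 ± 0.12, adjusted p = 0.0119), with the sign turned under median centring (0.18). Hspb6 was below 0 (-0.26), and Hspb3, Hspb7 and Hspb9 did not pass.

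DnaJ class A, the members closest to the bacterial protein, leaned above the reference: 5 of 8 probes were above 0, 1 was below and 2 did not pass (median 0.34). Dnaja1, the main cytosolic partner of Hspa8, had 3 probes, at 0.51, 0.47 and 0.74, at 0.94, 0.93 and 1.04, and at 0.71, 0.80 and 0.78. All 3 passed (means 0.58 ± 0.14, 0.97 ± 0.06 and 0.76 ± 0.05, limma adjusted p = 0.00166, 9.33e-05 and 0.000161), and none was below 0 on any array. Dnaja2 had a mean of 0.39, the mitochondrial Dnaja3 had 0.29 on the probe that passed, and Dnaja4 had -0.43.

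DnaJ class B held the lowest probe. Of its 21 probes 7 were above 0, 6 below and 8 did not pass (median 0.02). Dnajb4, a cytosolic heat-inducible DnaJ, had ratios of -1.44, -1.42 and -1.50 on the probe that was called lower (mean -1.45 ± 0.04, SD, n = 3, limma adjusted p = 3.01e-05), and the call was lost under median centring (-0.46). Its second probe read -0.38, -0.56 and -0.62 (adjusted p = 0.00182), with a mean of 0.05 under median centring. The third (-0.32, adjusted p = 0.0222) was detected in EpH4-PR RNA on no array and in reference RNA on 1 of 3, so it gives no level. Both detected probes stood below the reference on every array by loess. The gene carries the element TTCTAGAA close to the start printed above, whereas the 250 bases before another start (chr3:152210084-152210333) hold no heat shock element.

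Dnajb1, the principal heat-inducible partner of Hspa1a, had ratios of 0.37, 0.32 and 0.23 and of 0.30, 0.39 and 0.23 (means 0.30 ± 0.07 and 0.31 ± 0.08, limma adjusted p = 0.00529 and 0.00604). Dnajb9 (ERdj4), a DnaJ of the ER that is induced by the unfolded protein response, read -0.89, -0.93 and -1.01 on one probe (mean -0.94 ± 0.07, adjusted p = 0.000103). Its other probes averaged -0.21 and -0.14 and did not pass. The 3 probes of Dnajb6, which suppresses aggregation, were all above 0 (0.14 to 0.32), as were 1 of 3 probes of Dnajb5 (0.22) and the probe of Dnajb3 (0.17). The Dnajb3 probe was detected in reference RNA on only 1 of 3 arrays. Dnajb12 (-0.52 on one probe) and Dnajb8 (-0.27) were below 0, with the sign turned under median centring for Dnajb12 (0.58) and Dnajb3 (-0.06), and Dnajb2, Dnajb7 and Dnajb11 did not pass.

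DnaJ class C, the most varied class, had 15 genes and 33 probes, of which 11 were above 0, 8 below and 14 did not pass (median -0.04, and 0.69 under median centring). Dnajc2 (zuotin), which works at the ribosome exit with Hspa14, had ratios of 1.27, 1.28 and 1.10 and of 1.15, 1.11 and 1.04. Both probes were called higher (means 1.22 ± 0.10 and 1.10 ± 0.06, limma adjusted p = 7.64e-05 and 6.32e-05), and they were the only DnaJ probes so called. Dnajc1, a membrane protein of the ER, had the other probe called lower (-1.06, -0.98 and -1.002; mean -1.01 ± 0.04, adjusted p = 6.80e-05; 0.13 under median centring). Its other 3 probes averaged -0.67, -0.13 and -0.05, and of these only the first passed.

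Dnajc3 (p58IPK), which restrains the eIF2α kinase of the unfolded protein response, was split over 4 probes. One averaged 0.28, another 0.42, the third -0.48 and the fourth, which did not pass, 0.10. Dnajc10 (ERdj5), a disulfide reductase of the ER, was below 0 on 2 of 4 probes (-0.47 and -0.53), and the others did not pass. Dnajc5, the cysteine string protein of secretory vesicles, had 0.58, 0.41 and -0.16, and Dnajc13, of endosomes, had 0.44 on the probe that passed. Dnajc7 (0.18), 1 probe of Dnajc14 (0.21) and both probes of mitochondrial Dnajc11 (0.20 and 0.21) were above 0. Dnajc4 (-0.69) and 1 probe of the histone chaperone Dnajc9 (-0.58) were below, and Dnajc5b, Dnajc6, Dnajc8 and Dnajc12 did not pass. Under median centring these signs turned for Dnajc3 (0.44 on the third probe), Dnajc10 (0.69 and 0.57), Dnajc5 (0.87 on the third probe), Dnajc4 (0.32) and Dnajc9 (0.81). The 3 genes that are no chaperones read 1.02 (Hspbap1), 1.31 (Tmem132a) and -0.52 (Tmem208, 0.79 under median centring).

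Sorted by the place where the proteins work, the ER members taken by file name had the lowest median. These were 7 of 13 listed ER genes, and 5 of 9 listed mitochondrial genes were taken. Left out under older names were the ER genes Hspa13 (1.74 and -0.18), Hsp90b1 (-1.22 and -0.24), Dnajc16 (0.28 and 0.36) and Dnajc18 (0.21 and -0.64). So were the mitochondrial genes Dnajc15 (0.07), Dnajc19 (-0.28), Dnajc28 (0.05 and -0.02) and Dnajc30 (-0.21). The 24 probes of 11 heat-inducible cytosolic genes had a median of 0.41, with 15 above 0, 6 below and 3 not passed. The 9 probes of 5 mitochondrial genes had a median of 0.29, with 7 above 0, 1 below and 1 not passed. The 19 probes of 7 ER genes had a median of -0.14, with 2 above 0 (both of Dnajc3), 8 below and 9 not passed. Under median centring the ER median turned to 0.54 and the others moved to 1.73 and 1.17, so that the ER probes again had the lowest median of the 3 groups, as they did with the ratio of the scanner software (-0.49 against 0.62 and 0.70). No test compared the groups.

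**Figure D3:**
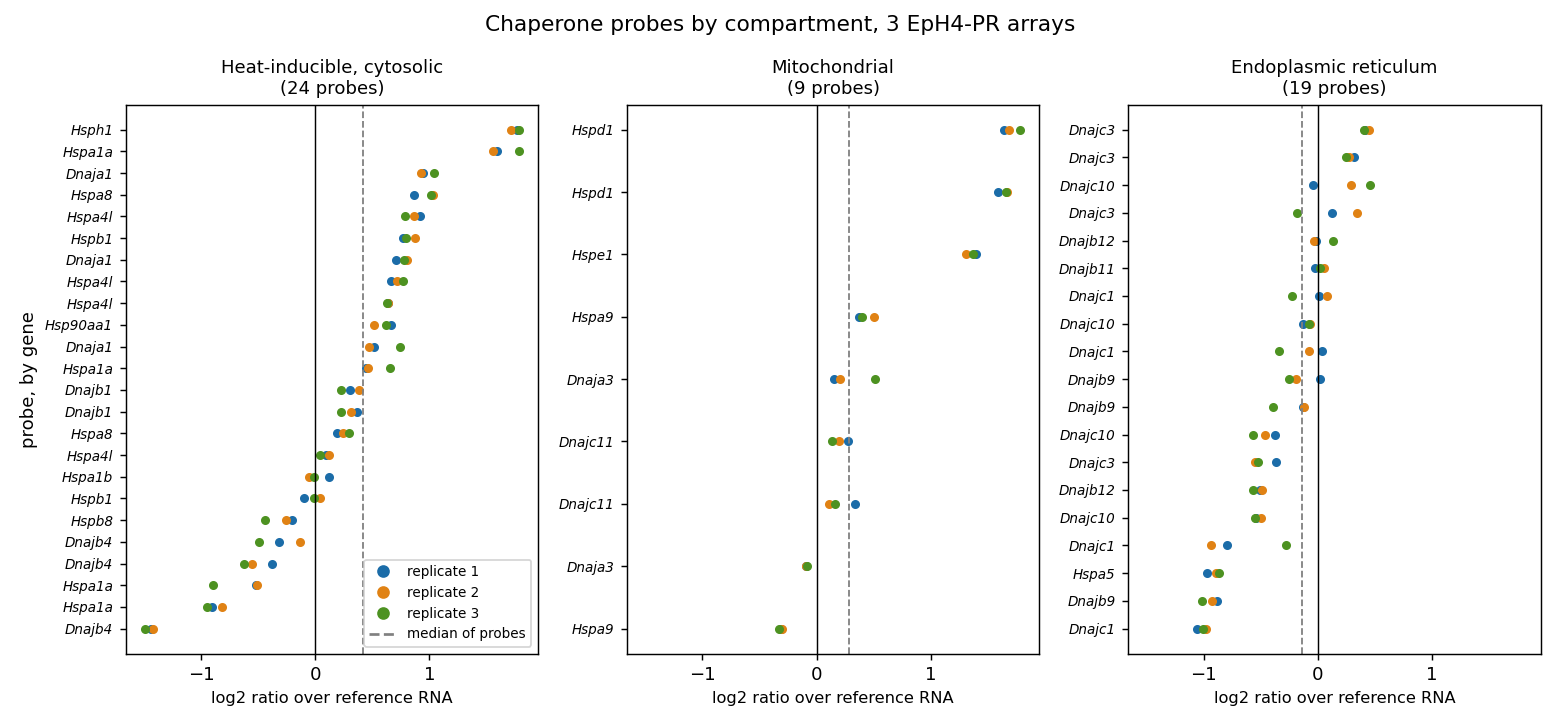
Log2 ratio over reference RNA (horizontal axis) of each probe (vertical axis, by gene) of the heat-inducible cytosolic, mitochondrial and ER members. Points are the 3 arrays and dashed lines the medians of 0.41, 0.29 and -0.14. The chaperonin probes stand apart from the other mitochondrial probes, and the highest ER ratio shown on any array is 0.46. Genes under older names, among them Hspa13 of the ER (1.69 to 1.80 on its higher probe), are not shown.

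Members known from germ cells and from muscle are given here beside those markers. Of 9 germ cell probes (7 genes) 1 was above 0, 2 were below and 6 did not pass (median -0.01), and none was called. Of 9 muscle probes (5 genes) 2 were above 0, 1 was below and 6 did not pass (median 0.09, and -0.01 under median centring), and 1 was called higher, of Hspb2.

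Promoter elements were counted in the windows of 250 bases before to 50 after a start, which the RefSeq table held for 46 of the 59 genes. A paired heat shock element stood in 14 of the 46 (30.4%), against 17.0% of all 27025 genes in that table. The triple element stood in 4 (Hspd1, Hspe1, Hsph1 and Dnajb6; 8.70% against 0.662%) and the ER stress element in 2 (Hspa5 and Dnajc3; 4.35% against 0.137%). Of the 9 genes called higher 5 had a window, and 4 of these (Hspa1a, Hspd1, Hspe1 and Hsph1) held a paired element. Hspa1a was called on 1 of its 4 probes. Hspd1 and Hspe1 share 1 run of 18 bases, so they are not independent in these counts. The triple element of Hsph1 lies after the start and so outside the printed window. A paired element also stood in Dnaja1 and Dnajb6, with all probes above 0, and in Hspb1, with a probe above 0 and another not passed. It was present in Dnajb4, whose detected probes were below 0, and in Hspb6 and Hspb8, which were below 0. Dnaja4 and Dnajc10 held it too, with some probes below 0 and the others not passed, as did Hspa1b and Hspb3, whose probes did not pass. The ER stress element stood both in Hspa5, at -0.91, and in Dnajc3, whose probes went both ways. A match is a match of letters and was not tested as a site.

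Other genes of the folding network were read from lists of their own. Their counts stand beside 25.7% of all probes above 0 and 24.6% below. Cochaperones of Hsp90 had 21 of 31 probes above 0, 2 below and a median of 0.41. Fkbp4, which is part of steroid receptor complexes, was called higher on both probes (1.64 and 1.50), as was Stip1 (Hop), which joins Hsp70 to Hsp90, on 1 of 2 (1.02). The cytosolic chaperonin CCT had 9 of 11 probes above 0 and none below (median 0.55; Cct7 called higher at 1.15). Its feeder prefoldin was split, with 3 probes of Pfdn5 called lower (-1.55, -1.39 and -1.18), Pfdn1 called higher (1.04) and a median of -0.54 that turned to 0.72 under median centring.

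Genes of ER folding and the unfolded protein response had 24 of 32 probes below 0, 5 above and a median of -0.52, which turned to 0.52 under median centring. The disulfide oxidase Ero1a (-2.41 and -2.37), Herpud1 of ER-associated degradation (-1.89), the stress factor Ddit3 (-1.59), the pseudokinase Trib3 (-1.50 on 1 of 2 probes) and Edem1 (-1.18 on 1 of 3) were called lower, and no probe was called higher. Of the 14 lower calls in these lists, those of Ero1a alone held under median centring, which raised bright probes as a whole. Sil1, which exchanges nucleotides on Hspa5, was called lower at -1.74, while the list of Hsp70 exchange factors had 8 of 17 probes above 0 and 4 below (median 0.13). Hsp90b1 (Grp94), the Hsp90 of the ER, carries the older name Tra1 in the files and read -1.22 (called lower) and -0.24, and 0.34 and 1.25 under median centring. The list of Hsp90 and J domain genes with other names had 5 of 14 probes above 0 and 6 below (median -0.05, and 0.16 under median centring). In it Cryab was called higher (1.20) and Hscb (-1.17) and 1 probe of Sec63 (-1.23, from 2 arrays, as its spot on the first was an outlier) were called lower. Among mitochondrial proteases and chaperones Lonp1 was called lower (-1.37), with 3 of 12 probes above 0, 5 below and a median of -0.12 (0.61 under median centring).

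**Figure D4:**
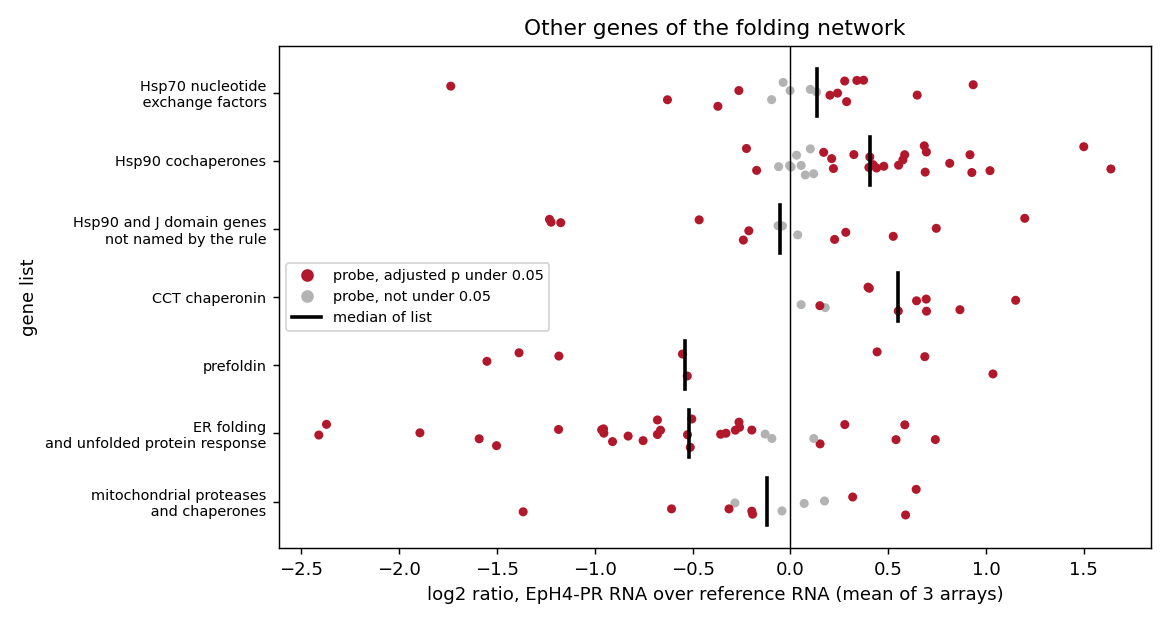
Log2 ratio over reference RNA (horizontal axis, mean of the arrays) of each probe in 7 lists of other folding genes (vertical axis; scatter within a list is for display only). Red points had an adjusted p under 0.05 and black bars are list medians. The CCT (0.55) and Hsp90 cochaperone (0.41) medians lie above 0, and the prefoldin (-0.54) and ER (-0.52) medians below.

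The ratios depend on how brightness is handled within an array. Median centring in place of loess left the median of all probes at -0.01 but moved that of the 9025 probes at least as bright as the median chaperone probe from 0.04 to 1.18. The median of the 110 chaperone probes moved from 0.09 to 0.77, and calls among them went to 43 higher and 0 lower. Over all 41174 probes, higher calls went from 932 to 7031 and lower calls from 1578 to 708. The share of higher calls among all called probes went from 37.1% to 90.9%. The ratio of the scanner software, which has its own dye normalization, gave 17 higher and 8 lower, against 3616 and 3887 of all probes. By this ratio the share of higher calls among all called probes was 48.2%. All 11 probes called higher by loess were also called higher under median centring and by the scanner software. Median centring raised bright probes as a whole, so it could hardly have removed a higher call and does not test the higher calls. The same rise favoured the loss of lower calls and turns to above 0 among bright probes, so it does not test those either. Their sign depends on the normalization, and which one is right was not tested.

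**Figure D5:**
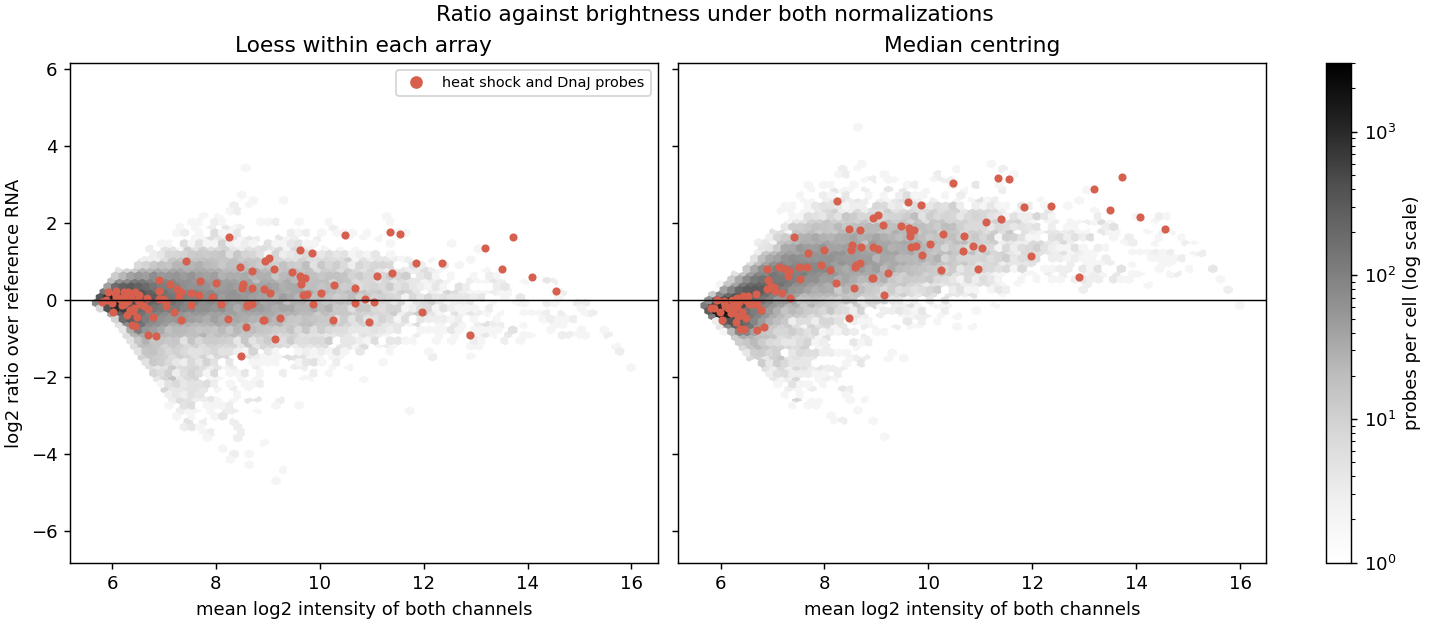
Log2 ratio over reference RNA (vertical axis) against the mean log2 intensity of both channels (horizontal axis) after loess (left) and after median centring (right). Grey cells count all 41174 probes and red points are the 110 chaperone probes. Under median centring bright probes of every kind lie above 0, with a median of 1.18 for the 9025 probes at least as bright as the median chaperone probe.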

How the data were processed

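The EpH4-PR cells' RNA was hybridised to 3 Agilent arrays with 2 colours, taken as replicates 1 to 3 as labelled. The authors deposited the output of Agilent Feature Extraction 8.1.1.1, with the intensity and local background of each spot in both channels and a log10 ratio, made by the scanner software and used here, turned to log2, as an alternative. The number of arrays limits the precision. A deposited table of the authors' own comparison between 2 unnamed sides (intensities, log ratios, fold changes and p-values) was not used.

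Mean spot intensities were corrected with normexp (offset 50), followed by loess normalization of each array, in limma 3.58.1 (R 4.3.3). Control and outlier spots were left out and spots of a probe were averaged, whereas different probes of a gene were not averaged. The mean log2 ratio was tested against 0 (lmFit, eBayes), with Benjamini-Hochberg adjustment over 41174 probes, after a test on simulated data. Calls needed an adjusted p under 0.05 together with a log2 ratio of 1 or more in either direction. Errors are SDs between arrays. "Well above background" is the scanner software's mark. Apart from the counts by brightness, no level of a probe was set against that of another.

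Genes carry the current symbol that the RefSeq table (GRCm38.p6) gives for the accession of a probe, which was found for 88 of the 110 probes; the other 22 kept the name in the file. Members and lists were chosen with earlier results of these data known. Values are given for called members, for a set of well-known members whatever their values and for members whose probes differ by over 1 log2 unit, with a summary or a mean of the others, and from each other list for the called genes. Alternatives were offset 0, the scanner software's ratio, median centring, a filter on dim probes, outlier spots kept, an intensity trend, the median spot intensity, the methods' t-test, leaving out each array, the call rule and members by current symbol. Python 3.11.15 was used for summaries and plots.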

Additional observations from a re-analysis of the deposited data

How the results depend on the processing

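With adjusted p alone, 48 probes of the heat shock and DnaJ genes were above and 25 below the reference, against 11 higher and 2 lower with the limit on size. With offset 0, 8 were lower (15 higher); by the scanner software's ratio, 17 were higher and 8 lower; under median centring, 43 were higher and 0 lower. Leaving out each array gave 10 to 11 higher and 1 to 2 lower. Over all probes, 932 higher and 1578 lower became 3125 and 3905 (offset 0), 3616 and 3887 (scanner software), 7031 and 708 (median centring) and 10568 and 10122 (adjusted p alone). In the other lists, 6 higher became 12 (offset 0), 16 (scanner software) and 59 (median centring), and 14 lower became 2 (median centring). Members taken by current symbol gave 11 higher and 3 lower of 130 probes. Hspa13 came in and Tmem132a went out among the higher, and Hsp90b1 was added to the lower. Leaving out the 3 genes that are no heat shock genes, an alternative chosen after seeing the data, gave 9 and 2.

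Median centring turned the sign of 33 of the 110 probes. Of these 15 had passed the test by loess, 13 below and 2 above 0. Among the probes followed through each alternative, signs turned for Hsf2 (-0.18 and -0.20), Hspa5 (0.59), Hspa9 (1.14), Hspb8 (0.18), Dnajb4 (0.0488), Dnajc1 (0.13) and Dnajc3 (0.44), in each case on 1 probe except Hsf2. Ratios near 0 turned for Hspa1b (-0.00146 with the median spot intensity, and -0.0309 to 0.0565 over the arrays left out, lowest without array 1), for Hspb1 (0.31 by the scanner software, and -0.0537 to 0.0167, highest without array 1), for Hsf2 (-0.0385 to 0.0803, lowest without array 3) and for Dnajc3 (-0.0296 to 0.235, lowest without array 2). The causes were not tested. No paired analysis was possible because there was 1 group. Dim probes limit the precision: 14 of the 110 were not well above background in reference RNA on every array and 11 not in the EpH4-PR channel, and local background subtraction may leave signal on dim spots.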

Other observations

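Further chaperone genes carry older names in the files and were found only by current symbol (22 probes of 15 genes). Hspa13, an Hsp70 of the ER and microsomes named Stch, had ratios of 1.69, 1.72 and 1.80 on one probe (mean 1.74 ± 0.06, SD, n = 3) and of -0.13, -0.25 and -0.17 on the other (mean -0.18 ± 0.06). Its probes thus stood on opposite sides of the reference on every array by loess, and both were above it under median centring (2.82 and 1.04). The ER genes Dnajc16 (0.28 and 0.36) and Dnajc18 (0.21 and -0.64), the splicing-related Dnajc17 (0.41), and the mitochondrial Dnajc15 (0.07), Dnajc19 (-0.28) and Dnajc30 (-0.21) had mean ratios within 1 log2 unit of the reference. Hspbp1, a nucleotide exchange factor of Hsp70, had a mean of 0.37, and the sperm gene Dnajb13 was detected in EpH4-PR RNA on no array.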
